A study of Homo sapiens with 2 samples.

Results

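Interferon regulatory factors (IRFs) were followed in 293T, an established cell line from human embryonic kidney, after exposure to Y27632, which blocks the protein kinases ROCK1 and ROCK2. The genes IRF1, IRF2, IRF3, IRF4, IRF5, IRF7, IRF8 and IRF9 were looked up by probe symbol, with ISGF3G and ICSBP1 read as the older names of IRF9 and IRF8. Of these 8 genes, 7 had a probe named in the platform annotation and 6 had a value (IRF1, IRF2, IRF3, IRF5, IRF7 and IRF9), out of 12445 genes named on the array. The probe of IRF4 had no value on either array, and IRF8 was not analysed here. Membership followed the symbols, but the family was chosen by its log ratios at 3 h and 6 h, so those values are a description and carry no test.

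The study used 2 dual-colour arrays. On each, untreated 293T cells with a stated time of 0 h carried Cy5, and 293T cells given 10 µM Y27632 carried Cy3, for 3 h on the first array and 6 h on the second. Both titles read control with the time and do not name the inhibitor, so the groups rest on the source and agent labels of the Cy3 sample. There was 1 array per time, with no dye swap and no replicate, so time and array cannot be told apart and no p-value is given. No vehicle is named for the controls, and whether both arrays used the same control RNA is not stated. Both ratios may therefore share a control. The cells are a single line that carries adenoviral early-region genes and the SV40 large T antigen, which limits how far it stands for kidney or immune cells. The values are ratios and hold no expression level, so the cell type could not be checked against its markers.

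The deposited values were log ratios of both channels, read as log2 because the labels do not give the base. The numerator of the ratio is not stated either. With treated cells in the numerator a negative value means less transcript after the inhibitor, and with control cells in the numerator it means more. Every sign is given as deposited. Values were present for 20503 of 24267 probes at 3 h and 20337 at 6 h, and across genes each array had a median of 0.02 and an SD of 0.36. Each measured IRF had 1 probe. The error beside a value is therefore the SD between probes of the same gene, taken over 572 multi-probe genes. This SD was 0.31 for the 3 h array, 0.33 for the 6 h array and 0.30 for the difference between them, and it leaves out the spread between cultures. Precision is limited by having 1 array per time.

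IRFs are transcription factors that share an amino-terminal DNA-binding domain with a cluster of conserved tryptophans and recognise repeats of GAAA, as found in interferon-stimulated response elements. IRF3 and IRF7 are activated by the kinases TBK1 and IKBKE downstream of nucleic acid sensors and turn on type I interferon genes. Interferon then signals through its receptors, JAK kinases and STAT proteins, and IRF9 joins STAT2 in the complex ISGF3. IRF1 is an activator whose gene is a classical target of interferon gamma signalling, and IRF2 can compete with it for the same sites. IRF4, IRF5 and IRF8 are best known from lymphoid and myeloid cells, and ROCK2 is known to phosphorylate IRF4 in T cells.

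The stretch of 250 bases before the first listed start is shown for the measured members that the RefSeq promoter table (GRCh38.p14) held, IRF1, IRF5 and IRF9, because IRF5 carried the large ratio and the genes of IRF1 and IRF9 are known targets of interferon signalling. Capitals mark the STAT motif TTCNNNGAA, the only motif searched that was found in them. For IRF5, which has 4 listed starts, the stretch lies inside the gene's record, which begins at 128937032. For IRF1 and IRF9 it lies next to the record. Sequences are written 5′ to 3′ on the strand of the gene.
IRF1, chr5:132490774-132491023, minus strand: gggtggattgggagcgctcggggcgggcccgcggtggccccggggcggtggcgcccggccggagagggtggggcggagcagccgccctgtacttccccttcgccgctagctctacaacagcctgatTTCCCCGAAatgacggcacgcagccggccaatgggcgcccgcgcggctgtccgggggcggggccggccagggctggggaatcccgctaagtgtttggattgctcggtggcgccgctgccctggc
IRF5, chr7:128937677-128937926, plus strand: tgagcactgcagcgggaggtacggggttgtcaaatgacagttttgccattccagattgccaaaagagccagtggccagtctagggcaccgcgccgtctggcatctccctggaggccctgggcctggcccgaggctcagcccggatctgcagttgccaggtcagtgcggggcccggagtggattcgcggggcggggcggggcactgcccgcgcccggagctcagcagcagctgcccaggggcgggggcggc
IRF9, chr14:24161015-24161264, plus strand: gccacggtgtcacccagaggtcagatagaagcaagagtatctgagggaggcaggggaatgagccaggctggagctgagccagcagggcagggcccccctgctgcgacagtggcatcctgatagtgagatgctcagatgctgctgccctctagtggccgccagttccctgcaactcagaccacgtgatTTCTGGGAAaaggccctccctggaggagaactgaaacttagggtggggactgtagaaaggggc

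In IRF1 the motif read TTCCCCGAA and lay 124 to 116 bases before the start. In IRF9 it read TTCTGGGAA and lay 63 to 55 bases before the start. TTCNNNGAA reads the same on both strands, and 7.66% of the 35116 listed promoters, each 300 bases long with 50 bases after the start, held it. The IRF motif GAAANNGAAA, searched on both strands, was in 3.57% of the promoters. It was in none of the windows listed for IRF1, IRF4, IRF5, IRF8 and IRF9, which include 4 starts of IRF5. A match is a description of the letters and not a binding site. Over the whole array, genes with the STAT motif had a median of 0.04 at 3 h (776 genes) and of 0.05 at 6 h (775 genes), beside 0.03 at each time for all genes with a listed promoter. Of the genes with it, 1.03% and 2.19% lay at least 1 log2 unit from 0, beside 1.44% and 1.39%.

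Among the IRFs, IRF5 was the member with a large ratio, and the other 5 lay near 0 at both times. At 3 h, 0 of the 6 measured IRFs lay at least 1 unit (2-fold in base 2) from 0, where 1.61% of 10810 genes did. At 6 h, 1 did, IRF5, where 1.43% of 10716 genes did and 0.728% lay at least 1 unit below 0. The family's median was 0.12 at 3 h and 0.10 at 6 h, against 0.02 for all genes at each time. By sign, 4 members were above 0 and 2 below at each time, against 51.3% and 51.5% of all genes above 0. Since the values chose the family, nothing is read from these counts.

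IRF5 acts downstream of Toll-like receptors and MYD88 and drives inflammatory cytokine genes in macrophages and dendritic cells. Its gene lies on chromosome 7 from 128937032 to 128950038 (GRCh38.p14), and it was read by probe H200019515. Its log ratio was −0.83 at 3 h and −1.99 at 6 h, sizes of 1.78-fold and 3.97-fold. At 6 h it was the lowest of 10716 genes, and 0.0187% of genes lay as far from 0 on either side. At 3 h it was 198th from the lowest of 10810 genes, and 3.38% lay as far from 0. The 6 h ratio was lower than the 3 h ratio, with a difference of −1.16 ± 0.30 (probe SD, 1 probe), 19th from the lowest of 10469 genes. This SD comes from other genes and holds no spread between repeat arrays, so the change was not tested. Differences of at least 1 unit were present in 1.20% of genes, and in 0.430% on the negative side. No second probe of IRF5 was named, so whether the value belongs to the gene or to the probe was not tested. Signal over background was not used here, so whether the spot behind this ratio was weak was not tested either. Among genes with 1 probe, 1.47% lay at least 1 unit from 0 at 6 h.

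**Figure D1:**
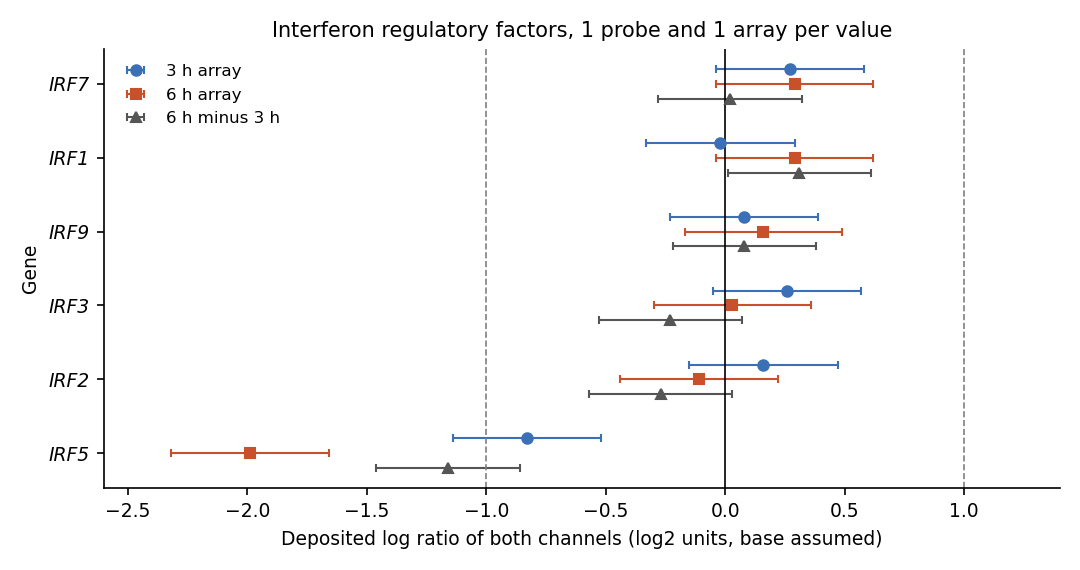
Deposited log ratios (log2 units, base assumed) of the 6 measured IRFs, with circles for the 3 h array, squares for the 6 h array and triangles for the difference 6 h minus 3 h. Bars are the SD between probes of a gene over 572 other genes (0.31, 0.33 and 0.30), dashed lines stand at 1 unit from 0, and IRF5 is apart from the rest at −0.83 and −1.99.

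IRF3 and IRF7, the factors that turn on interferon genes, both had positive ratios. IRF3 (probe H300019120, chromosome 19, 49659572 to 49665857) had 0.26 at 3 h and 0.03 at 6 h. IRF7 (probe H300018519, chromosome 11, 612555 to 615950) had 0.27 and 0.29. All of these sizes were below the SD between probes. The difference between the times was −0.23 for IRF3 and 0.02 for IRF7, also below it.

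IRF1 and IRF2, the activator and its competitor, each had ratios of opposite sign on the arrays. IRF1 (probe H300008499, chromosome 5, 132481609 to 132490773) had −0.02 at 3 h and 0.29 at 6 h, and IRF2 (probe H200007064, chromosome 4, 184387729 to 184474550) had 0.16 and −0.11. The differences were 0.31 and −0.27, next to a probe SD of 0.30, and a change of sign between the arrays was found in 20.8% of 10469 genes. At 6 h, IRF1 had the same ratio as IRF7. IRF9, the DNA-binding subunit of ISGF3 (probe H300021697, chromosome 14, 24161265 to 24166565), had 0.08 and 0.16, which are 1.06-fold and 1.12-fold.

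In order of the ratio at 6 h, IRF5 was followed by IRF2, IRF3, IRF9 and then IRF1 and IRF7. From IRF2 upwards no neighbours in that order differed by more than the SD between probes, and IRF5 lay 1.88 units below IRF2. At 3 h the order was IRF5, IRF1, IRF9, IRF2, IRF3 and IRF7, and IRF5 lay 0.81 units below IRF1. Without IRF5, the members ranged from −0.02 to 0.27 at 3 h (SD 0.12, n = 5 genes) and from −0.11 to 0.29 at 6 h (SD 0.17, n = 5 genes). Ratios of this size were common: 38.1% of genes lay as far from 0 at 6 h as IRF1 and IRF7.

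**Figure D2:**
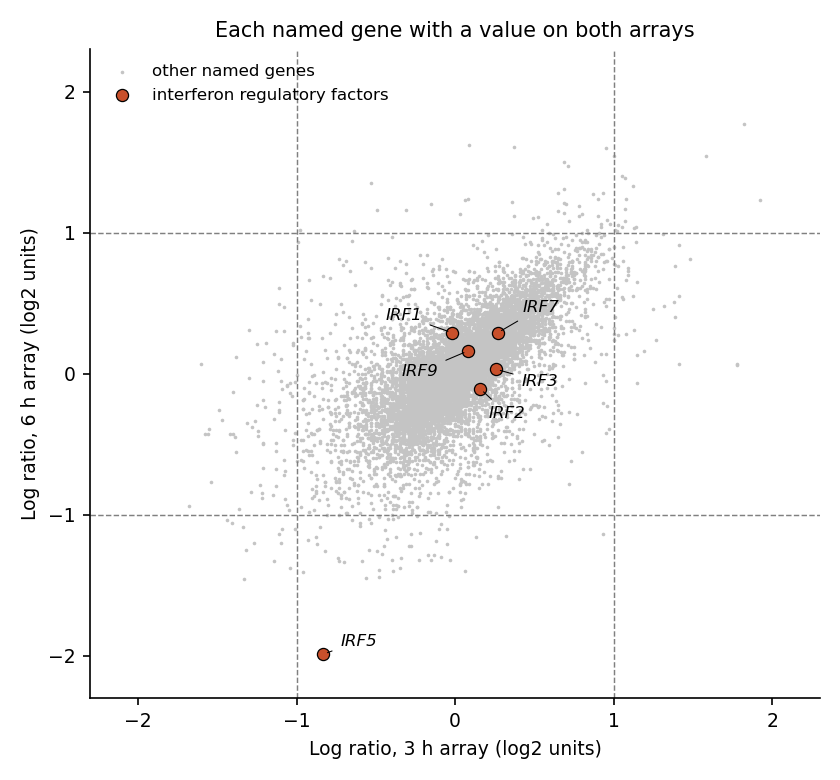
Log ratios (log2 units) at 3 h on the horizontal axis and 6 h on the vertical axis for each named gene with a value on both arrays (grey points, 10469 genes in all), with the 6 measured IRFs in orange. Dashed lines stand at 1 unit from 0; 5 IRFs lie inside the main cloud and IRF5 lies below it at −0.83 and −1.99. The arrays may share a control RNA, so the slope of the cloud is not read as a result.

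The genes whose pair of ratios was nearest to that of IRF5, by Euclidean distance over the 2 arrays, were PLB1, RNF17 and PROKR2. PLB1, a phospholipase gene, had −0.96 at 3 h and −1.41 at 6 h, at a distance of 0.59 units. RNF17 had −0.56 and −1.45 over 3 probes, at a distance of 0.60. PROKR2, a prokineticin receptor gene, had −1.04 and −1.38, at a distance of 0.65.

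Neighbouring genes on the chromosome were set beside each member. TNPO3, a nuclear import receptor gene that starts 4.1 kb beyond IRF5, had 0.48 at 3 h and 0.28 at 6 h, on the other side of 0 from IRF5. On the other flank, ATP6V1F, a subunit of the vacuolar proton pump, lies 71.2 kb away with 2 coding genes between, and had −0.18 and −0.31. The large negative ratio of IRF5 was not present in its nearest measured neighbours. Next to IRF9, the proteasome activator gene PSME2 had 0.26 and 0.19, and REC8, a meiotic cohesin gene, had 0.62 and 0.59. IRF1 lies between the carnitine transporter gene SLC22A5, with −0.09 and 0.33, and the cytokine gene IL5, with 0.29 and 0.45. In this region all 3 genes had higher ratios at 6 h than at 3 h, as did 46.9% of all genes. Around IRF2, IRF3 and IRF5 the member and both neighbours had lower ratios at 6 h. The record of IRF3 overlaps that of BCL2L12, which had 0.60 and 0.56 against 0.26 and 0.03 for IRF3. Whether either probe lies in the shared stretch was not tested. RRAS, on the other side of IRF3, had −0.16 and −0.22. IRF2 had ENPP6 at 0.62 and 0.56 and the centromere gene CENPU at 0.37 and 0.19 on its flanks, and IRF7 had RASSF7 at −0.46 and −0.12 and DEAF1 at 0.00 on both arrays.

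Upstream of the IRFs, the median of sensors and adaptors was 0.07 over 14 genes at 3 h and 0.04 over 12 genes at 6 h. At least 1 unit from 0 lay 0 of them, against 1.61% of all genes at 3 h and 1.43% at 6 h. By sign, 8 were above 0 and 5 below at 3 h, and 7 and 5 at 6 h. Over all genes, 51.3% and 51.5% were above 0. By the mean of both times, among genes with both values, the highest were TANK, a scaffold of the kinases TBK1 and IKBKE, at 0.42 and 0.82, and RIGI, a cytosolic RNA sensor, at 0.28 and 0.54. On the same measure the lowest were TLR8, an endosomal RNA receptor, at −0.43 and −0.36, and IKBKE itself at −0.35 and −0.12. Further values, chosen after they were seen, are those of the kinase TBK1 at 0.20 and 0.42 and of MYD88, the adaptor through which IRF5 is activated, at −0.17 and −0.15. The RNA sensor IFIH1, also chosen after its values were seen, had 0.00 and 0.72.

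For the interferon genes themselves, the targets of IRF3 and IRF7, the median was −0.15 at 3 h (10 genes) and −0.07 at 6 h (9 genes). IFNA7 lay past 1 unit, at 1.25 at 3 h, where 1.61% of all genes were past it. It had no value at 6 h. IFNA5 had −0.21 and 0.41, IFNA2 −0.04 and 0.38, IFNA17 −0.46 and −0.26, and IFNK, a keratinocyte interferon gene, −0.81 and −0.07. IFNB1, chosen after its values were seen, had 0.14 and −0.28. The IFNA genes are close copies of each other whose probes may not tell them apart.

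Receptors, JAK kinases and STAT proteins were measured for 17 genes, and their median was 0.14 at 3 h and 0.19 at 6 h. Above 0 lay 11 genes at 3 h and 15 at 6 h, against 51.3% and 51.5% of all genes. At least 1 unit from 0 lay 0 of 17 on each array, against 1.61% and 1.43% of all genes. STAT2, the partner of IRF9 in ISGF3, had the highest ratios at 0.61 and 0.65, while IRF9 had 0.08 and 0.16. IFNGR1, a chain of the interferon gamma receptor, had 0.38 and 0.62. By the mean of both times the lowest were the feedback inhibitors SOCS3, at −0.35 and −0.23, and SOCS1, at −0.21 and 0.01. The difference between the times was positive for 15 of 17 genes, against 46.9% of all genes. Its median was 0.09 against −0.01 for all genes. The differences ranged from −0.19 to 0.30, beside a probe SD of 0.30, and were not tested.

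For 16 partners and cofactors of IRFs the median was −0.20 at 3 h and 0.01 at 6 h. Above 0 lay 4 at 3 h and 8 at 6 h, against 51.3% and 51.5% of all genes. IKZF1, the lymphoid zinc finger factor Ikaros, had −0.34 and −1.31. It was the 1 partner past 1 unit, at 6 h, where 1.43% of all genes were and 0.728% lay at least 1 unit below 0. Like IRF5 it was read by 1 probe. Its difference of −0.97 was negative, as were those of 9 of the 16 partners and 51.2% of all genes. The paralogous acetyltransferases EP300 and CREBBP, coactivators of IRF3, had ratios of 0.68 and 0.43 on the 3 h array and of 0.67 and 0.57 on the 6 h array. BCL6, a repressor of germinal centre B cells, had −0.43 and −0.39. The genes of the corepressors named after IRF2, chosen after their values were seen, had −0.28 and −0.39 for IRF2BP1 and −0.03 and −0.04 for IRF2BP2.

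**Figure D3:**
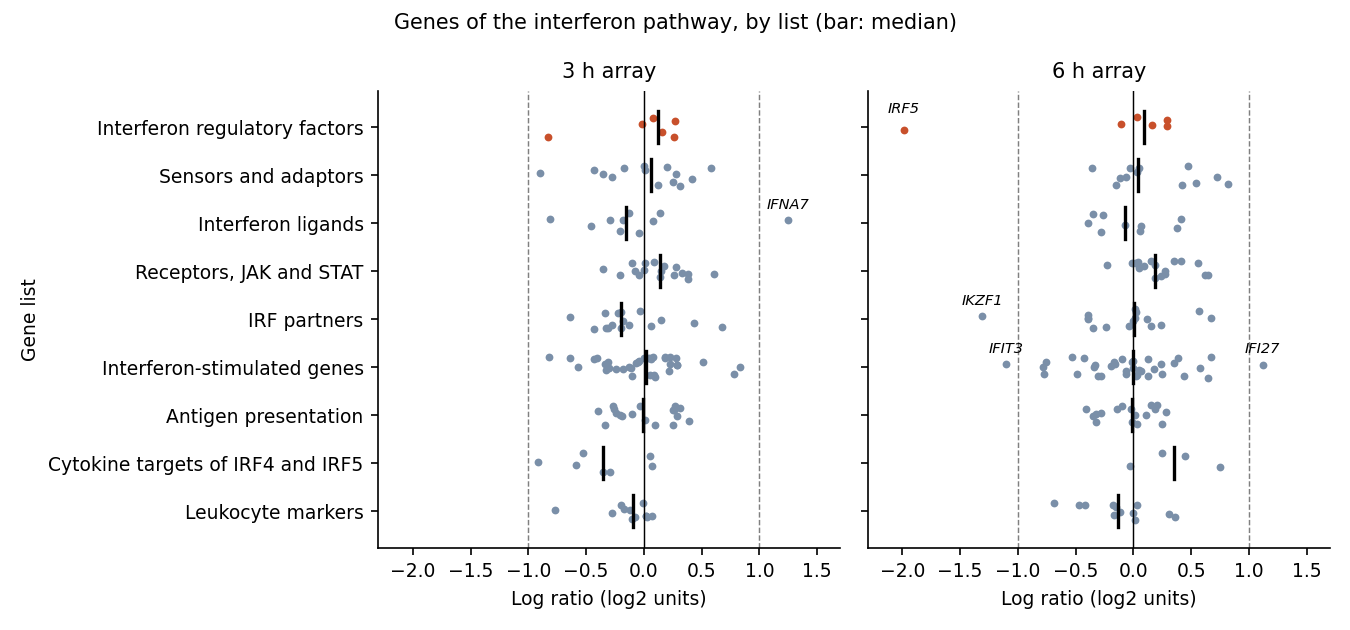
Log ratios (log2 units) at 3 h (left) and 6 h (right) of the measured genes of 9 lists, with 1 point per gene, a black bar at the list's median and dashed lines at 1 unit from 0. The genes past 1 unit are named: IFNA7 at 1.25 at 3 h, and IRF5 at −1.99, IKZF1 at −1.31, IFIT3 at −1.10 and IFI27 at 1.12 at 6 h.

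Interferon-stimulated genes, the common targets of ISGF3 and of several IRFs, were measured for 36 genes on each array, with a median of 0.02 at 3 h and −0.01 at 6 h. At 3 h, 18 were above 0 and 17 below, and at 6 h 16 and 18. Over all genes, 51.3% and 51.5% were above 0. None lay past 1 unit at 3 h (0 of 36, against 1.61% of all genes). At 6 h 1 did on each side, against 1.43% of all genes over both sides. IFI27, an interferon alpha-inducible protein, had 0.78 and 1.12, and IFIT3, an RNA-binding antiviral protein, had −0.10 and −1.10. GBP5, a guanylate-binding protein, had 0.83 and 0.58, and PARP14, an ADP-ribosyltransferase, had −0.82 and −0.77 over 2 probes. Further negative ratios at 6 h, chosen after they were seen, were those of MX2 at −0.78 and OAS1 at −0.76, with −0.13 and −0.18 at 3 h. ISG15 and IFITM3, chosen in the same way, had 0.65 and 0.67 at 6 h. The antiviral genes were thus spread to both sides of 0 and their median stayed near that of all genes.

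IFIT3 and IFI27 had ratios of opposite sign at 6 h, and both promoters held the IRF motif. The copies nearest the start are shown with 10 bases on each side, and capitals mark the motif, which reads TTTCNNTTTC in the first line and GAAANNGAAA in the second.
IFIT3, chr10:89332468-89332497, plus strand: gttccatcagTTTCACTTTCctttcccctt
IFI27, chr14:94110631-94110660, plus strand: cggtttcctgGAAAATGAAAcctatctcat

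These copies lay 51 to 42 bases before a listed start of IFIT3 and 95 to 86 bases before a listed start of IFI27. IFI27 also held a copy reading TTTCNNTTTC, 108 to 99 bases before the same start. IFIT3 held further copies of that reading, so the letters shown do not set the genes apart. The motif was in promoters of 31 of 45 interferon-stimulated genes that the table held (68.9%) and of 11 of 19 antigen presentation genes (57.9%), against 4.38% of the 27305 genes with a listed promoter, counting a gene where any of its promoters held it. Interferon-stimulated genes with the motif had a median of 0.06 over 20 genes at 3 h and of 0.00 over 21 genes at 6 h. Those without it had −0.07 over 9 and −0.02 over 8. Over the whole array, genes with the motif had a median of 0.03 at 3 h (357 genes) and of 0.06 at 6 h (352 genes), and all genes with a listed promoter had 0.03 at each time. Of the genes with the motif, 2.24% and 1.42% lay at least 1 unit from 0, against 1.44% and 1.39% of all genes with a promoter. Genes with an IRF motif thus had ratios centred like those of the rest.

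Antigen presentation genes, many of them targets of IRF1, had a median of −0.01 on each array, over 18 genes at 3 h and 17 at 6 h. Past 1 unit lay 0 of them, against 1.61% of all genes at 3 h and 1.43% at 6 h. HLA-E had 0.39 and 0.25 and HLA-DMA 0.25 and 0.28, while HLA-DRB1 had −0.34 and −0.28 and the peptide transporter gene TAP1 −0.27 and −0.32. HLA genes are close copies whose probes may not tell them apart.

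Cytokine genes known as targets of IRF4 and IRF5 in immune cells were measured for 7 genes at 3 h and 4 at 6 h, out of 10 named on the array. The median was −0.35 at 3 h and 0.35 at 6 h, over different sets of genes. On either array 0 lay past 1 unit, against 1.61% of all genes at 3 h and 1.43% at 6 h. IL4 had −0.92 and 0.25, IL10 −0.53 and 0.75, IL23A −0.35 and −0.03, and IL12A 0.05 and 0.45. All 4 had higher ratios at 6 h than at 3 h, as did 46.9% of all genes, and the other 6 named on the array had no value at 6 h. IL6, TNF and IL1B, chosen after their values were seen, had −0.29, 0.07 and −0.59 at 3 h and no value at 6 h.

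Markers of leukocytes, the cells in which IRF5 is best known, were measured for 12 of 19 genes named on the array. Their median was −0.09 at 3 h, with a range of −0.77 to 0.07, and −0.14 at 6 h, with a range of −0.69 to 0.36. None lay past 1 unit (0 of 12 on each array), against 1.61% of all genes at 3 h and 1.43% at 6 h. By the mean of both times the lowest were CSF1R at −0.77 and −0.47 and CD8A at −0.08 and −0.69, and the highest were FCGR3A at 0.02 and 0.36 and CD3D at 0.02 and 0.03. The part of leukocyte transcripts in the ratio of IRF5 was not tested, since ratios hold no level. The genes of the inhibited kinases, ROCK1 at 0.14 and 0.41 and ROCK2 at 0.39 and 0.38, lay within 1 unit of 0.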

How the data were processed

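The authors deposited 1 log value per probe and array, read here as a log2 ratio of both channels of a dual-colour array, with a median of 0 on each array. For the background correction, normalization, spot filter, log base and direction, the sources used here give nothing. Base 2 was assumed, and other bases would change every fold. Depth has no meaning for these arrays.

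Probes were named from GEO's platform annotation (13395 of 24267 probes with 1 symbol). RefSeq (GRCh38.p14) held 10822 of these symbols as current names, 2446 were replaced through a synonym of a single gene, and 127 ambiguous ones were kept. A gene's value was the mean of its probes. Each array was labelled by the Cy3 source. With 1 array per time no test was possible, and lists are described by counts and medians beside those of all genes. The members, the gene lists, the size of 1 unit and the alternatives were chosen with earlier results of these data known.

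Named genes were all IRFs; in each list the genes at least 1 unit from 0 on either array and the 2 highest and 2 lowest by the mean of both times; the 3 nearest patterns to an IRF past 1 unit; the nearest measured coding gene on each side; and ROCK1 and ROCK2. The text says where another gene was chosen after its values were seen. Promoters came from RefSeq and were matched by symbol, which gave 5 of the 8 IRFs. Python 3.11.15, pandas 2.3.3 and NumPy 2.4.6 were used, and the gene summary was tested on simulated data.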

Additional observations from a re-analysis of the deposited data

Results flagged for a closer look

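IL10 and IL4, 2 cytokine genes from the list of IRF4 and IRF5 targets, had ratios on opposite sides of 0 at 3 h and 6 h that lay at least 1 unit apart. The difference, 6 h minus 3 h, was 1.28 for IL10 and 1.17 for IL4. With 1 array per time these differences were not tested, and 91 of 10469 genes showed the same. Each gene had 1 probe.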

How the results depend on the processing

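The values of the 6 IRFs were recomputed with each gene given by its probe farthest from 0, with each array recentred on the median of its named genes, with both arrays scaled to a common SD, with symbols as the annotation lists them, and with genes measured on both arrays only. IRF5 ranged from −0.85 to −0.83 at 3 h, from −2.01 to −1.98 at 6 h and from −1.16 to −1.15 in the difference, and no IRF moved by more than its probe SD or changed sign under these settings. With 1 probe per IRF, the choice of probe could not change these values. Requiring both arrays could not change them either, since each of the 6 had both values. Under the listed symbols each IRF kept its probe and its value. Recentring and scaling could move them little, since each array had a gene median of 0.02 and an SD of 0.36. The small ranges are therefore not read as a check of the values. At a size of 1.5-fold, 1 IRF was past the size at 3 h in place of 0, which was IRF5, while 9.36% of all genes were. Among the other lists, 18 of 24 counts rose from 0 or grew by over 1.5 times at that size. A smaller size can only keep or raise a count. IFNA7 left the count at 3 h when both arrays were required, IKZF1 left the partners at 6 h under the listed symbols, and IFIT3 left the count of differences under the common SD. No paired analysis was possible because each time has 1 array and the labels give no replicate numbers. Precision is limited by the number of arrays, and signal over background was not used here.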

Other observations

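The share of genes without a value differed between the lists. Of all 12445 named genes, 13.1% had none at 3 h and 13.9% at 6 h. Of the receptors, JAK kinases and STAT proteins, 0 of 17 lacked a value. Interferon ligands lacked one in 37.5% and 43.8% of 16 genes, leukocyte markers in 36.8% of 19 genes at each time, and cytokine targets of IRF4 and IRF5 in 30.0% and 60.0% of 10 genes. Among the IRFs, the lymphoid factor IRF4 lacked a value on both arrays while IRF5 had one on each. The filter that removed values is not given in the sources used here, so a missing value is not read as a missing transcript.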
